A study of Mus musculus with 6 samples.

Results

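The genes described here are 41 genes of the YAP and SRF programmes in AML12 cells, chosen by name before any filter. The choice was made with earlier results of these data known. They comprise 10 targets of YAP and TEAD, 5 Hippo kinase, YAP/TAZ and TEAD factors, and 14 actins, myosins, tropomyosins and filament-binding genes. The others are 8 adhesion and cross-linker genes and 4 further genes, of which the MRTF gene Mkl1 is described here. A row with the gene's name was found for 40 of the 41 among 25330 genes, and the expression of Myl9 was not analysed here. Cyr61, Ctgf and Mkl1 are the names used in the tables for Ccn1, Ccn2 and Mrtfa. AML12 is a hepatocyte line derived from a mouse that carries a transgene for human TGF-α, and its genotype is labelled WT. The 6 RNA-seq libraries came from 3 normoxic control samples and 3 samples after hypoxia and reoxygenation (H/R), the model in which the study looked for genes that respond to ischemia and reperfusion of the liver. Control cells were kept at 21% oxygen and 5% CO2 in DMEM/F12 with 10% fetal bovine serum, ITS and 40 ng/ml dexamethasone. H/R cells were moved to medium without serum or glucose, held at 1% oxygen and 5% CO2 for 6 h and reoxygenated for 2 h. Medium and oxygen therefore changed together, and their effects cannot be told apart in this design.

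YAP and its paralog TAZ are transcriptional coactivators that lack a DNA-binding domain and act mainly through the TEAD factors. The Hippo kinases LATS1 and LATS2 phosphorylate both proteins and keep them in the cytoplasm, while tension in the actin cytoskeleton favours their entry into the nucleus. SRF binds the CArG box and is coactivated by MRTF, which is released to the nucleus when monomeric actin is taken up into filaments, so that many genes of actin, myosin and focal adhesions are read out by both systems. In the liver, YAP is known for its control of organ size and of biliary against hepatocyte identity.

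A total of 38 members passed the filter on low counts and were tested among 14020 genes. After H/R, 31 of the 38 were higher and 2 were lower (edgeR quasi-likelihood test, Benjamini-Hochberg adjusted p under 0.05). Over all genes tested, 31.0% were higher and 31.8% were lower by the same rule. Of the 38, 11 were also at least 2-fold higher, against 4.25% of all genes, and 0 were at least 2-fold lower, against 4.27% of all genes. The median log2 fold change of the members was 0.54, and that of all genes was -0.01. The members were chosen with earlier results of these data known, so these shares describe the list only. The lowest H/R value exceeded the highest control value in 33 members, as it did in 32.5% of all genes tested. In 2 members (Tpm1 and Yap1) the H/R values were all lower, against 33.5% of all genes, and in 3 (Axl, Tagln and Tpm2) the groups overlapped, against 34.1% of all genes. The members together took 1.42% ± 0.0118 of the counts of a control library and 2.16% ± 0.0413 of an H/R library (SD, n = 3). Fewer cells of a kind and less RNA per cell cannot be told apart in such bulk samples. With 3 libraries against 3 an exact permutation test cannot go below p = 0.1, so single genes were tested in the fit across all genes.

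**Figure D1:**
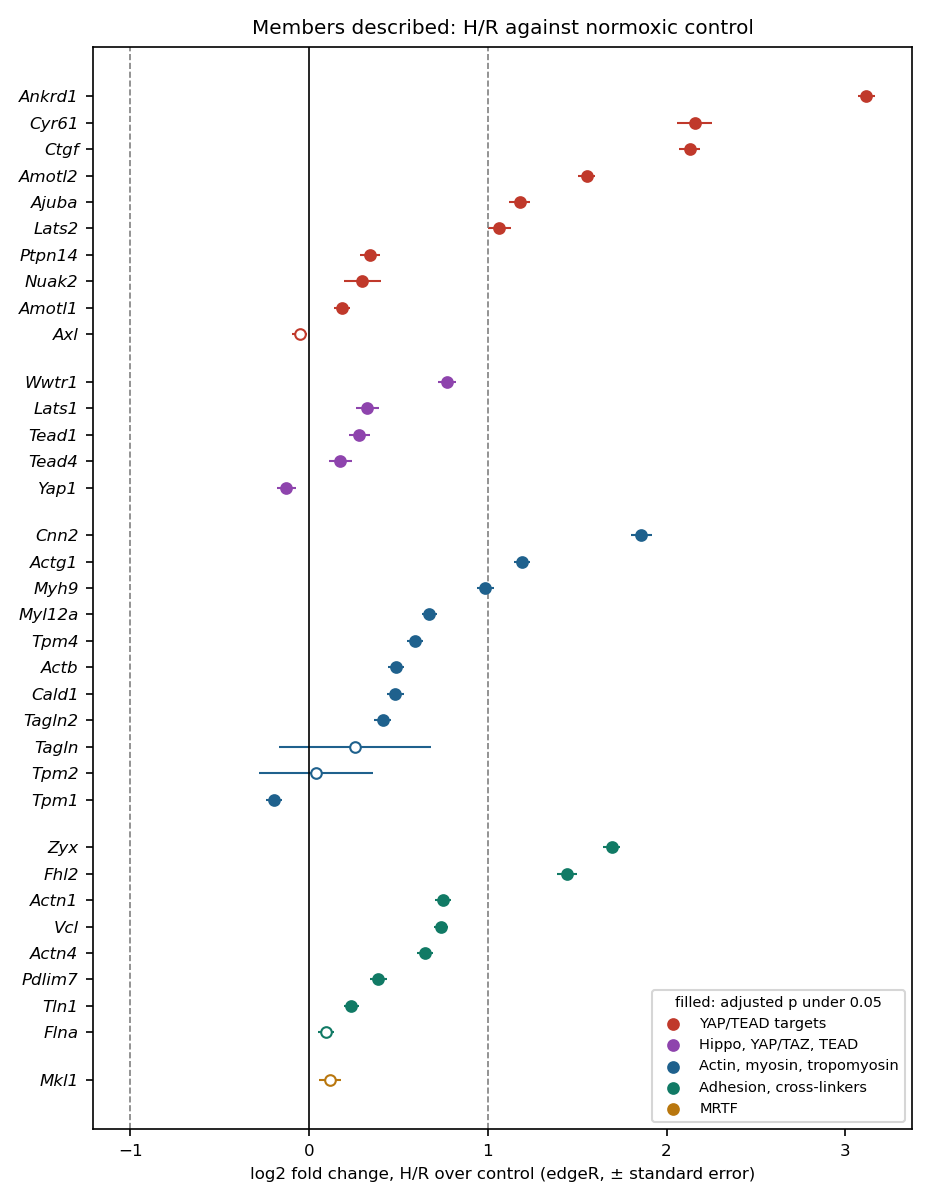
Log2 fold change of H/R over normoxic control (horizontal axis) for 35 of the 38 members tested, grouped by role. Points are edgeR estimates from 3 libraries per group, bars are standard errors, filled points had an adjusted p under 0.05, and dashed lines mark a 2-fold difference. The YAP/TEAD targets reach furthest to the right, with Ankrd1 at 3.12, and Tpm1 and Yap1 are the filled points left of 0.

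Total counts lay between 20438746 and 21854790 per library. Control replicate 1 differed most from the others of its group (chi-square per degree of freedom of 15.5 and 16.2 against the other controls), and without it 31 members were higher, 1 was lower and 11 were at least 2-fold higher. Of 11 hepatocyte markers, 3 rose (the keratins Krt8 and Krt18, and Foxa2) and 8 fell, and Alb had 542, 132 and 209 counts in the control libraries against 43, 31 and 37 after H/R. The summed share of the hepatocyte list was 0.426% to 0.461% of the control libraries and 0.620% to 0.624% of the H/R libraries, most of it from the keratins. Of the biliary markers, Krt19, Krt7 and Sox9 rose and Spp1 fell, Epcam was not analysed here and Cftr had at most 1 count. The biliary list took 0.152% to 0.171% of the control libraries and 0.257% to 0.267% of the H/R libraries. Stellate cell markers, which matter here because activated stellate cells express many of the actin genes, summed to 32 to 53 counts per control library and 22 to 36 per H/R library, with 6 of 11 at 3 counts or fewer in every library. Endothelial markers summed to 3 to 15 counts in the controls and 4 to 10 after H/R, with 6 of 7 at 3 counts or fewer. The smooth muscle list consisted almost wholly of the actin-binding gene Smtn, which rose (log2 fold change 1.90), while Myh11 had at most 5 counts and Myocd at most 1. Leukocyte markers summed to 65 to 78 counts in the controls and 176 to 220 after H/R, nearly all from Csf1r and Cd68, which both rose, with at most 3 counts of Ptprc. The part of the hepatocyte, biliary and leukocyte genes in the results was not tested.

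The targets of YAP and TEAD held the 3 highest fold changes among the members (Ankrd1, Cyr61 and Ctgf). Of 10 targets, 9 were higher and 6 of these at least 2-fold, and the median log2 fold change of the list was 1.12. Over all genes tested, 31.0% were higher and 4.25% were at least 2-fold higher. Promoter sequences were looked at because TEAD factors bind a short motif, GGAATG on either strand. A promoter window of 300 bases (250 before the start site and 50 from it on) was found in RefSeq for 8 of the 10, but not for Ctgf and Nuak2. Of the 8, 7 held the motif, as did 14.66% of 32851 windows of all genes and 16.58% of 27025 genes. The 8 were listed as targets of YAP and TEAD, so this share describes the choice of genes and is no independent result. The targets that rose at least 2-fold with a match before their start are shown with the motif in capitals, 5′ to 3′ on the strand of the gene, in RefSeq's GRCm38.p6. Stretches end where an annotated exon (GENCODE M21) begins, and a match that itself lies in an annotated exon is shown within 30 bases.
Cyr61, chr3:145650043-145650128, minus strand: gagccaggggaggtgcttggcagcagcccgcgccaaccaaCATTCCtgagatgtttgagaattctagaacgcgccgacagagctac
Ankrd1 distal match, chr19:36120037-36120066, minus strand: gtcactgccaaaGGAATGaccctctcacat
Ankrd1 proximal match, chr19:36119950-36119979, minus strand: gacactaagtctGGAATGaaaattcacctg
Amotl2, chr9:102717727-102717756, plus strand: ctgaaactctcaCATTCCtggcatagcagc
Ajuba, chr14:54577780-54577887, minus strand: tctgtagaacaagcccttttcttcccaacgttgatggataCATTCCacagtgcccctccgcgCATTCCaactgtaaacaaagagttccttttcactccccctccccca
The matches began 103 bases before the start in Cyr61, 210 and 123 bases before it in Ankrd1, 65 in Amotl2, and 186 and 164 in Ajuba. The RefSeq start of Amotl2 lies 1132 bases inside the gene as the tables place it. Lats2 held its match after the start, and Axl and Ptpn14, which did not reach 2-fold, also held one, so the motif was present both in targets that rose and in one that did not. A match is a run of letters and does not show binding.

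Ankrd1 (chr19:36111965-36119844, minus strand), which encodes a nuclear and sarcomeric ankyrin repeat protein and is a standard readout of YAP activity, rose most. Its normalized count, the count scaled to a common library size by TMM, was 1656, 1591 and 1585 in control replicates 1 to 3 and 13637, 14749 and 13537 in H/R replicates 1 to 3. The lowest H/R library stood far above the highest control library, and the fitted fold was 8.67 (log2 fold change 3.12 ± 0.05, standard error, edgeR adjusted p = 7.64e-33). By RPKM, which also divides by gene length, Ankrd1 went from place 1415 to place 159 among all genes.

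Cyr61 (chr3:145646976-145649981, minus strand) and Ctgf (chr10:24595442-24598683, plus strand) encode secreted matricellular proteins of the CCN family and are the most used YAP target genes. Cyr61 had normalized counts of 187, 139 and 151 in the controls and 715, 636 and 779 after H/R. Ctgf had 900, 723 and 810 in the controls and 3468, 3545 and 3633 after H/R. Both groups were apart in each gene, with control replicate 1 the highest control. The log2 fold change was 2.16 ± 0.10 for Cyr61 (edgeR adjusted p = 2.38e-17) and 2.13 ± 0.06 for Ctgf (edgeR adjusted p = 1.27e-22). Of the exon length of Ctgf, 23.2% is shared with the antisense gene Gm15270, whose counts were 544, 405 and 437 in the controls and 1766, 1779 and 1900 after H/R, and how reads of this stretch were split between both genes is not given in the sources used here.

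Among the targets that feed back on the pathway, Amotl2, Ajuba and Lats2 rose at least 2-fold. Amotl2 (chr9:102716672-102733418, plus strand) encodes an angiomotin that binds YAP at junctions. Its normalized count was 2425, 2101 and 2146 in the controls and 6375, 6733 and 6481 after H/R (log2 fold change 1.55 ± 0.05, edgeR adjusted p = 2.5e-23). Ajuba (chr14:54567469-54577661, minus strand), a LIM protein that restrains LATS kinases, had 803, 680 and 743 in the controls and 1579, 1714 and 1745 after H/R (log2 fold change 1.18 ± 0.06, edgeR adjusted p = 3.21e-18). The groups did not overlap in these genes. Lats2 (chr14:57642077-57758388, minus strand), the kinase that YAP itself induces, had 390, 411 and 384 in the controls and 839, 841 and 798 after H/R. Its log2 fold change of 1.06 ± 0.06 (edgeR adjusted p = 1.9e-16) was the one nearest to the 2-fold limit among the members above it, and under library totals alone it was no longer at least 2-fold.

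The remaining targets moved little. Ptpn14, a phosphatase that binds YAP, rose from 1005, 1033 and 1007 normalized counts to 1221, 1382 and 1253 (log2 fold change 0.34 ± 0.05). Nuak2, a kinase of the AMPK family, rose from 151, 165 and 156 to 199, 190 and 191 (log2 fold change 0.30 ± 0.11, edgeR adjusted p = 0.0142). This call was lost under upper quartile scaling, under library totals alone, in both limma fits on RPKM and without control replicate 1. Amotl1, the angiomotin next to Amotl2 in sequence, rose from 1794, 1778 and 1823 to 2065, 2073 and 2002 (log2 fold change 0.19 ± 0.04), a call lost under library totals alone and in both limma fits on RPKM. The angiomotins thus differed in the size of their change, with 95% intervals of the log2 fold change of 1.46 to 1.65 in Amotl2 and 0.10 to 0.27 in Amotl1. Axl, a receptor tyrosine kinase, had 8016, 7728 and 8111 in the controls and 7554, 7726 and 7729 after H/R, and the groups overlapped (log2 fold change -0.05, 95% interval -0.13 to 0.03, edgeR adjusted p = 0.283). Scaled by library totals alone, Axl passed the threshold as lower.

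**Figure D2:**
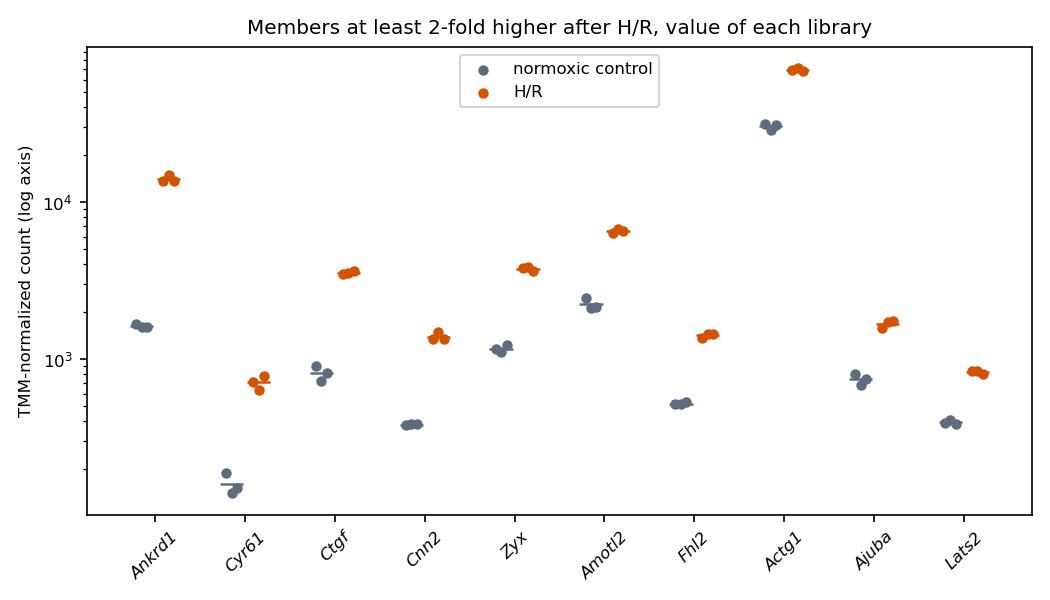
Normalized counts (log axis) of 10 of the 11 members that were at least 2-fold higher after H/R, 1 point per library and a line at the mean of 3 libraries, control on the left and H/R on the right of each gene. The groups do not overlap in any of the 10, from Ankrd1 (control mean 1611, H/R mean 13975) to Lats2 (control mean 395, H/R mean 826).

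The coactivators themselves moved in opposite directions. Wwtr1, the gene of TAZ, had normalized counts of 1017, 1014 and 1038 in the controls and 1837, 1742 and 1668 after H/R (log2 fold change 0.77 ± 0.05, edgeR adjusted p = 2.09e-15). Yap1 had 1236, 1139 and 1201 in the controls and 1081, 1085 and 1107 after H/R (log2 fold change -0.13 ± 0.05, edgeR adjusted p = 0.0321). The Yap1 groups were apart by little, and the call was lost in 4 of the 6 fits that left out a library, those without control replicate 1 or 3 or without H/R replicate 1 or 2. By RPKM, Wwtr1 went from 10.5 to 16.7 and Yap1 from 6.31 to 5.37, so that Wwtr1 was the higher of the pair in both groups.

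Of the other factors, Lats1, the paralog of Lats2, rose from 633, 754 and 657 normalized counts to 805, 870 and 884 (log2 fold change 0.33 ± 0.06, edgeR adjusted p = 4.41e-05). The 95% interval of its log2 fold change, 0.20 to 0.45, lay below that of Lats2, 0.94 to 1.19. The DNA-binding partner Tead1 rose from 766, 867 and 774 to 960, 992 and 971 (log2 fold change 0.28 ± 0.06). Tead4 rose from 703, 600 and 684 to 748, 747 and 749 (log2 fold change 0.18 ± 0.06, edgeR adjusted p = 0.0152). In Tead4 the RPKM values of the groups overlapped, at 8.13 to 9.48 in the controls and 9.40 to 9.59 after H/R. Its call was lost under upper quartile scaling, under library totals alone and without control replicate 2. Lats1, Tead1 and Tead4 did not pass the test in either limma fit on RPKM. The median log2 fold change of the 5 factors was 0.28. Changes in YAP or TAZ phosphorylation, location or protein were not measured by these libraries.

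Among the actins and their filament partners, 11 of the 14 listed were tested, 8 were higher, 2 of these at least 2-fold, and 1 was lower, with a median log2 fold change of 0.48. This list took 1.01% ± 0.00583 of the counts of a control library and 1.55% ± 0.0330 of an H/R library (SD, n = 3). For comparison, 31.0% of all genes tested were higher, 4.25% were at least 2-fold higher and 31.8% were lower. A CArG box, the SRF motif of CC, A or T at each of the inner positions and GG, was looked for on both strands because SRF acts through it. It was found in 6 of the 35 members with a promoter window (among them Actg1, Cnn2, Myl9, Vcl and Fhl2), against 1.63% of all windows and 1.81% of all genes. Ctgf, Nuak2, Tead1, Tead4, Actb and Tagln had no window and were not searched for any motif. The windows of the members that rose at least 2-fold and held a CArG box are shown with the box in capitals, by the same conventions as the TEAD matches.
Actg1, chr11:120348543-120348625, minus strand: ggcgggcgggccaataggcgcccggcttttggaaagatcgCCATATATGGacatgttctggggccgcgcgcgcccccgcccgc
Cnn2, chr10:79988504-79988583, plus strand: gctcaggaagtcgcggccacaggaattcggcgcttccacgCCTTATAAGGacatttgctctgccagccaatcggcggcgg
Fhl2 upstream start, chr1:43196838-43196867, minus strand: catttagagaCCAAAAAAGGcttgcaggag
Fhl2 downstream start, chr1:43163962-43164032, minus strand: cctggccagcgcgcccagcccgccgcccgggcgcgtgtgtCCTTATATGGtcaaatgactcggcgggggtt
The boxes began 90 bases before the start in Actg1, 56 in Cnn2, and 96 and 31 before the starts of Fhl2. No window of the 8 YAP/TEAD targets searched held a CArG box. At a share of 1.81% of all genes, 8 windows would seldom hold one, so this does not set the lists apart. The motif of AP-1 (TGANTCA), was found on either strand in 4 of the 35 members (Myl12a, Cald1, Actn4 and Zyx), against 7.81% of all windows and 8.97% of all genes. Over all 35 members, 17 held the TEAD motif. Among them were Yap1 and Tpm1, which were lower, and Flna, which did not pass the test. Matches of different motifs did not overlap in any member.

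**Figure D3:**
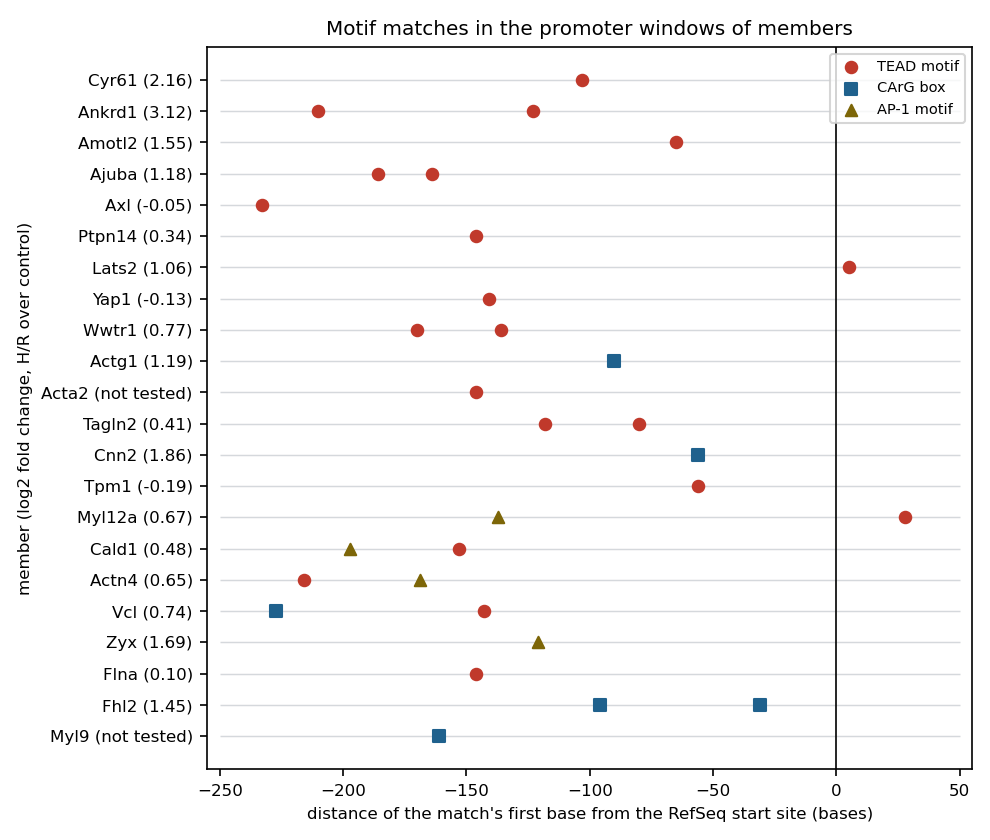
Motif matches in the promoter windows of 22 members with at least 1 match, by distance in bases from the RefSeq start site (horizontal axis), with the log2 fold change of H/R over control beside each name except Acta2 and Myl9, which were not tested. TEAD matches (circles) lie in 7 of the 8 YAP/TEAD targets with a window. Among the members drawn, CArG boxes (squares) lie in filament and adhesion genes. They occur in 1.81% of all genes, so their absence from the few other windows does not set the lists apart. The pair of circles for Wwtr1 is 1 genomic match seen from 2 start sites.

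The cytoplasmic actins rose by different amounts. Actg1 (chr11:120345690-120348542, minus strand), the gene of γ-actin, had normalized counts of 31442, 28643 and 31017 in the controls and 68735, 70890 and 68339 after H/R (log2 fold change 1.19 ± 0.05, edgeR adjusted p = 2.04e-21). Actb (chr5:142903115-142906754, minus strand), the gene of β-actin, had 18695, 18069 and 18849 in the controls and 25416, 26887 and 25511 after H/R (log2 fold change 0.48 ± 0.05, edgeR adjusted p = 2.12e-11). The H/R libraries were above the controls in both genes. The ratio of Actg1 RPKM to Actb RPKM was 1.70, 1.60 and 1.66 in the controls and 2.73, 2.66 and 2.70 after H/R, a 1.63-fold difference without overlap (exact permutation test, two-sided p = 0.1). Actg1 moved from place 102 to place 40 by RPKM and Actb from place 169 to place 131. Since near-identical coding sequences of actin genes and their pseudogenes can share reads, the split between these genes carries that uncertainty.

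β-actin was also the reference gene of the RT-qPCR in the study, so Klf6, the transcription factor at its centre, was set against Actb in the same libraries. The ratio of Klf6 counts to Actb counts was 0.0597, 0.0629 and 0.0575 in the controls and 0.113, 0.111 and 0.112 after H/R. This is a 1.87-fold difference (exact two-sided permutation test, p = 0.1), whereas Klf6 scaled by TMM differed 2.61-fold (log2 fold change 1.39 ± 0.05).

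The smooth muscle forms were at or near the floor of detection. Acta2, the gene of α-smooth muscle actin, had at most 1 count in every library. Cnn1, which encodes calponin 1 of smooth muscle, had 0 counts in every control library, which allows up to 3, and 3, 4 and 4 counts after H/R, too few for a fold change. Tagln, the gene of SM22α, had 4, 16 and 13 normalized counts in the controls and 18, 8 and 13 after H/R. Tpm2 had 27, 17 and 13 in the controls against 15, 20 and 23 after H/R. The groups overlapped in Tagln and Tpm2 and neither passed the test (edgeR adjusted p = 0.622 and 0.926). The log2 fold change of Tagln had a 95% interval from -0.58 to 1.09 and that of Tpm2 from -0.59 to 0.66, so changes within those limits remain possible. Of the exon length of Tagln, 67.9% is shared with genes on the other strand, Pcsk7 among them.

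Other filament-binding genes on the list, Cnn2, Tagln2 and Cald1, rose. Cnn2 (chr10:79988584-79996062, plus strand) encodes a calponin that binds actin in many cell types. It had 379, 384 and 383 normalized counts in the controls and 1336, 1484 and 1340 after H/R (log2 fold change 1.86 ± 0.06, edgeR adjusted p = 8.81e-24). Tagln2, the widely expressed transgelin, rose from 3903, 3968 and 4288 to 5086, 5652 and 5426 (log2 fold change 0.41 ± 0.05). Cald1, which encodes caldesmon, a regulator of actomyosin, rose from 35875, 39174 and 34801 to 52949, 52405 and 48172 (log2 fold change 0.48 ± 0.05). In none of the 3 did a control library reach the lowest H/R library.

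Of the genes of non-muscle myosin II, Myh9, its heavy chain A, had the highest count of all members. Its normalized count was 59150, 59944 and 58530 in the controls and 115736, 122309 and 113807 after H/R, a fold of 1.98 just under the 2-fold limit (log2 fold change 0.99 ± 0.05, edgeR adjusted p = 1.71e-19). Without H/R replicate 3 it passed that limit. Myl12a, a regulatory light chain, rose from 6737, 6473 and 6449 to 10615, 10477 and 10229 (log2 fold change 0.67 ± 0.04).

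The tropomyosins, which coat actin filaments, did not move together. Tpm4 rose from 26236, 26795 and 24865 normalized counts to 39940, 39289 and 38227 (log2 fold change 0.59 ± 0.05, edgeR adjusted p = 1.87e-13). Tpm1 fell from 24913, 23792 and 24129 to 21730, 21259 and 20648 (log2 fold change -0.19 ± 0.04, edgeR adjusted p = 3.13e-04). The ratio of Tpm4 RPKM to Tpm1 RPKM was 3.10, 3.32 and 3.03 in the controls and 5.41, 5.44 and 5.45 after H/R, a 1.73-fold difference without overlap (exact two-sided permutation test, p = 0.1). Of the exon length of Tpm4, 6.08% is shared with another gene, and the tables give 1 count per gene, so isoforms were not resolved.

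**Figure D4:**
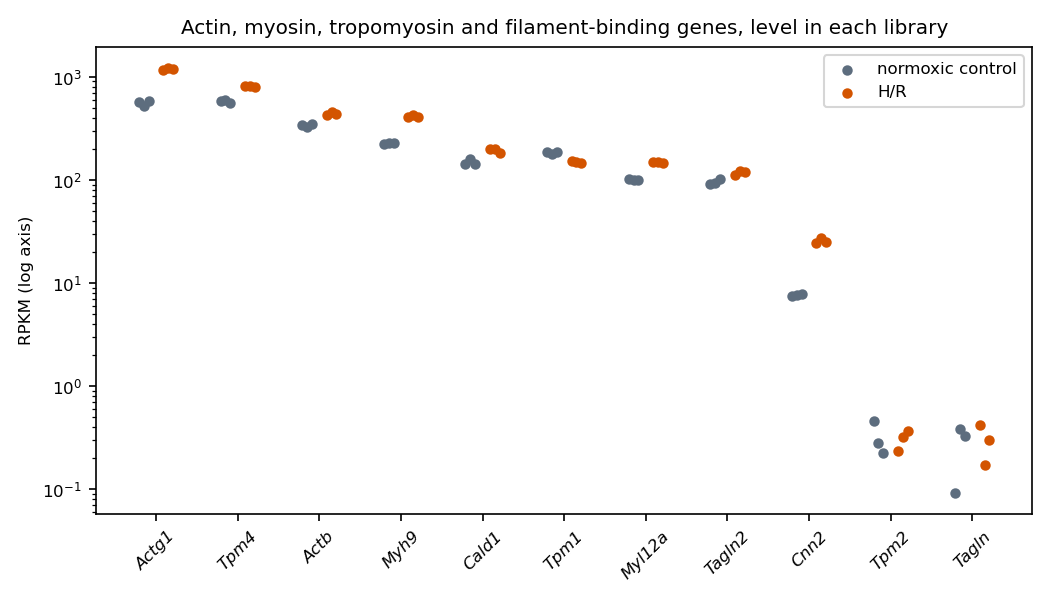
RPKM (log axis) of the 11 tested actin, myosin, tropomyosin and filament-binding genes in each library, control and H/R side by side, in order of the H/R mean. Actg1 is highest after H/R (mean 1188 against 560 in the controls), Tpm1 is the one that fell (149 against 183), and Tagln and Tpm2 lie below 1 RPKM with overlapping groups.

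All 8 adhesion and cross-linker genes had higher normalized counts in every H/R library than in any control library, as did 32.5% of all genes. The test called 7 of the 8 higher, against 31.0% of all genes, and 2 rose at least 2-fold, against 4.25%. In log2 fold change the 8 genes had a median of 0.69. Zyx (chr6:42349630-42360213, plus strand) encodes zyxin, a LIM protein recruited to strained actin filaments at focal adhesions. It had 1156, 1099 and 1224 normalized counts in the controls and 3770, 3850 and 3644 after H/R (log2 fold change 1.69 ± 0.05, edgeR adjusted p = 1.21e-25). Fhl2 (chr1:43123074-43196984, minus strand), a LIM-only cofactor and SRF target, had 515, 514 and 529 in the controls and 1355, 1441 and 1447 after H/R (log2 fold change 1.45 ± 0.06, edgeR adjusted p = 1.11e-21).

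The α-actinins cross-link actin filaments, and their changes had overlapping 95% intervals. Actn1 went from 11830, 11620 and 11950 normalized counts to 19355, 20370 and 19828 (log2 fold change 0.75, 95% interval 0.66 to 0.84), and Actn4 from 10466, 10374 and 10479 to 16330, 16717 and 16054 (log2 fold change 0.65, 95% interval 0.56 to 0.73). Vcl, the gene of vinculin, which ties talin to actin, went from 3474, 3474 and 3492 to 5797, 5879 and 5727 (log2 fold change 0.74 ± 0.04, edgeR adjusted p = 1.86e-17). Of the exon length of Vcl, 39.9% is shared with the antisense gene Ap3m1, whose own log2 fold change was 0.16. Tln1, the gene of talin, which activates integrins, differed less, from 4507, 4476 and 4434 to 5127, 5444 and 5241 (log2 fold change 0.24 ± 0.04).

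Pdlim7, a PDZ and LIM scaffold, rose from 1908, 1882 and 1848 normalized counts to 2533, 2527 and 2320 (log2 fold change 0.39 ± 0.05). Flna, the gene of filamin A, which joins filaments into networks, had 17581, 16690 and 17281 in the controls and 18266, 18701 and 18160 after H/R (log2 fold change 0.10, 95% interval 0.01 to 0.18, edgeR adjusted p = 0.0568). Flna passed the threshold as higher with the replicate number as a block (log2 fold change 0.10) and had the opposite sign under library totals alone (-0.01). By RPKM its groups overlapped, at 86.6 to 91.6 in the controls and 87.9 to 90.3 after H/R.

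Mkl1, the gene of the SRF coactivator MRTF-A, had 542, 585 and 593 normalized counts in the controls and 645, 604 and 616 after H/R. The groups lay close together and the gene did not pass the test (log2 fold change 0.12, 95% interval -0.01 to 0.24, edgeR adjusted p = 0.11).

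Other genes of the same programmes, from lists written beside the members, are read against the 31.0% of all genes that were higher and the 31.8% that were lower. Of 23 other Hippo pathway genes, 9 were higher and 5 were lower, with a median log2 fold change of 0.11. The highest were the upstream regulator Frmd6 (1.46) and the TEAD cofactor Vgll4 (0.90). Taok1 (0.68) and Wwc2 (0.67) followed. The 5 lower genes were named after their values were seen. They were Nf2, the upstream tumour suppressor also called merlin (-0.63), the kinases Taok3 (-0.44) and Taok2 (-0.21), Amot, the founding angiomotin (-0.37), and Limd1, a relative of Ajuba (-0.32). Of 16 other YAP/TAZ target genes tested, 4 were higher and 4 were lower, with a median of 0.05, and neither share exceeded that of all genes. F3, the gene of tissue factor (2.52), Gadd45a (1.80) and Crim1 (0.84) rose, and Ccdc80 fell (-1.32). The remaining calls, named after their values were seen, were Myof (0.24) among the higher and Birc5 (-0.63), Edn1 (-0.43) and Dock5 (-0.20) among the lower genes. The medians of the targets listed as members and of these other targets, 1.12 and 0.05, describe the lists, and their difference was not tested.

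Of 16 other SRF and MRTF genes tested, 10 were higher and 4 were lower, with a median log2 fold change of 0.46. Srf itself had 625, 576 and 620 normalized counts in the controls and 1144, 1151 and 1163 after H/R (log2 fold change 0.92 ± 0.06, edgeR adjusted p = 3.45e-16). Palld (1.60), Fermt2 (1.44), Filip1l (1.42) and Csrp1 (1.12) rose most on this list. The 4 lower genes, named after their values were seen, were Mylk, the myosin light chain kinase gene (-0.84), the villin gene Vil1 (-0.62), Lima1 (-0.40) and a further tropomyosin gene, Tpm3 (-0.27). Of 34 other adhesion and actin regulator genes tested, 22 were higher and 6 were lower, with a median of 0.39. Lpp (1.10), Pdlim5 (1.02), Pxn (0.76) and Rnd1 (0.68) had the largest changes. The 6 lower genes, named after their values were seen, were Pfn1 (-0.36), Limk1 (-0.27), Arhgdia (-0.19), Tln2 (-0.17), Ptk2 (-0.13) and Cfl1 (-0.11).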

How the data were processed

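The authors deposited 1 table per library, with whole-number counts per gene and RPKM values. Per the submitters' processing notes, Trimmomatic 0.36, featureCounts, Subread 1.5.1 and edgeR 3.12.1 were used with GRCm38. The deposited RPKM could be recomputed from count, gene length and library total. The kit was stranded, but whether counting used strand is not given in the sources used here. The notes do not say that replicates were separate cultures, so p-values measure the spread between these samples, which may be technical.

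Tests were run on the counts with edgeR 4.0.16 (R 4.3.3), using filterByExpr, TMM, glmQLFit (robust) and glmQLFTest on all 6 libraries, with Benjamini-Hochberg adjustment over all 14020 genes tested. The script was tested on simulated data. Members and lists were chosen with earlier results of these data known. The results of 3 members are not reported here, although the counts over all members include them. Genes named are the other members, Srf and Klf6, and per further list at most 4 genes with the largest absolute log2 fold change among those with an adjusted p under 0.05 and a mean normalized count of at least 50. Marker genes, and genes that share exons with a member, were named after their values were seen, as were the lower genes of the context lists. Alternatives were DESeq2 1.42.0, limma 3.58.1 on log2(RPKM + 1) and log2(RPKM + 0.1), other scalings and filters, the replicate number as a block, and leaving out each library. Total counts of 20438746 to 21854790 set the depth, and 3 counts were taken as the floor.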

Additional observations from a re-analysis of the deposited data

How the results depend on the processing

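The number of members higher after H/R was 31 and ranged from 26 (both limma fits on RPKM, which lost Amotl1, Lats1, Nuak2, Tead1 and Tead4) to 32 (DESeq2 and the replicate block, which added Flna) over 15 alternatives, and the number at least 2-fold higher was 11 and ranged from 10 to 12. Lats2 was the one lost under upper quartile scaling, library totals alone and both limma fits, and Myh9 the one gained, without H/R replicate 3. No member was called at least 2-fold lower in any of these fits. The 11 had an adjusted p under 0.05 in every alternative. The number lower was 1 with no filter on low counts and 1 with DESeq2, both times without Yap1, 3 with Axl added under upper quartile scaling, library totals and limma, and 1 to 2 when a library was left out. The median of all genes moved from -0.01 to -0.08 under upper quartile scaling and to -0.12 under totals alone. The medians of the YAP/TEAD targets, the Hippo, YAP/TAZ and TEAD factors, the actin list and the adhesion list were 1.05, 0.21, 0.41 and 0.62 under upper quartile scaling, 1.02, 0.18, 0.38 and 0.59 for library totals, 0.88, 0.13, 0.38 and 0.58 with limma on log2(RPKM + 1), and 1.00, 0.17, 0.38 and 0.59 with limma on log2(RPKM + 0.1). With at least 10 counts in every library the actin list had a median of 0.53, since Tagln was then not tested. Leaving out 1 library gave medians of 0.25 to 0.34 for the Hippo, YAP/TAZ and TEAD factors and 0.49 to 0.60 for the actin list. Tpm2 changed sign under upper quartile scaling (-0.0325), library totals (-0.0652), limma (-0.0127 and -0.0245) and without control replicate 2, control replicate 3 or H/R replicate 3, with a range of -0.17 to 0.40 when a library was left out. Flna changed sign under library totals (-0.00826) and limma (-0.00759 and -0.00767), and Tagln without control replicate 1 or H/R replicate 1 (range -0.15 to 0.60). The same-numbered libraries did not deviate together (correlations of -0.03, 0.00 and -0.01 over 14020 genes). This cannot show whether same-numbered samples shared a culture or a run. The replicate block gave 32 higher, 2 lower and 11 at least 2-fold higher.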
